A study of Mus musculus with 12 samples.

Results

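Splenic T cells that had been sorted as terminally exhausted (Tex) and that the authors had placed in cluster 3 of their single-cell analysis numbered 11127, of 100540 cells in the deposited cell table. They were chosen by library and cluster number, and 1898 came from mice treated with an antibody to CD137 and 9229 from mice given a control immunoglobulin (Ig control). Both groups were wild-type C57BL/6 mice treated over 14 days with 2 injections per week. The anti-CD137 group was 5 mice that received 10 µg of clone 3H3, and the Ig control group was 10 mice that received 100 µg of clone HRPN. The Tex gate was high CD44, PD-1 positive, Slamf6 negative and Tim3 positive, the precursor exhausted (Tpex) gate was high CD44, PD-1 positive, Slamf6 positive and Tim3 negative, and the effector (Teff) gate was high CD44 and PD-1 negative. The series title names the cells as CD8+ T cells.

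CD137, also called 4-1BB and encoded by Tnfrsf9, is a costimulatory receptor that activated T cells display. Exhausted CD8+ T cells arise under persistent stimulation through the T cell receptor and carry inhibitory receptors such as PD-1. In mouse models of chronic infection, Slamf6-positive precursors renew themselves and give rise to Tim3-positive, terminally exhausted cells. Each T cell joins V and J segments (and, in the beta chain, a D segment) into 1 alpha chain (TRA) and 1 beta chain (TRB) gene, with bases trimmed and added at the joints. The joint encodes the CDR3, the loop that contacts the peptide, so cells with the same CDR3 bases in both chains are taken as descendants of 1 cell, a clonotype.

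Each treatment had 1 library per subset, and the mice behind a library cannot be told apart in the files. No test was therefore possible. Intervals are 95% and cover counting error only, and treatment, dose, the number of mice and the library cannot be told apart. No values per gene were used here, so neither the exhausted label nor the makeup of cluster 3 could be checked against marker genes, and the cluster keeps its number. The sources used here do not say whether receptor genes entered the clustering or whether doublets were removed. Between 30 and 71 of the anti-CD137 barcodes, and between 123 and 370 of the Ig control barcodes, also occurred in each of the other libraries. The same TRB accompanied 1 of these shared barcodes, in Ig control Tpex, and none of the others.

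Cluster 3 held a minority of Tex cells after anti-CD137 and most of them in the Ig control. Its share was 19.2% (18.4 to 19.97) of 9897 anti-CD137 Tex cells, against 86.9% (86.2 to 87.5) of 10623 Ig control Tex cells. The difference was -67.7 percentage points. Cluster 4 took up 79.8% (79.0 to 80.6) of anti-CD137 and 8.89% (8.35 to 9.44) of Ig control Tex cells, and 103 and 450 cells lay outside both clusters. Cluster 3 was mostly a Tex population: of its 11658 cells, 48 were anti-CD137 Tpex, 423 Ig control Tpex, 54 anti-CD137 Teff and 6 Ig control Teff cells.

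Cells of cluster 3 carried more unique molecular identifiers (UMIs, counts of distinct captured transcripts) than those of cluster 4. Over all cell cycle phases the medians were similar in both treatments, and within each phase the anti-CD137 median was lower, as given below. The median was 6001 UMIs (5769 to 6264) per cell after anti-CD137 and 6092 (6020 to 6172) in the Ig control, a difference of -91 with an interval from -336 to 182. Cluster 4 cells had medians of 3172 and 2612 UMIs. The lowest cluster 3 cell had 1849 UMIs after anti-CD137 and 1024 in the Ig control, so the libraries did not end at the same depth. Cluster 3 cells showed a median of 2212 genes with a UMI after anti-CD137 and 2243 in the Ig control. Mitochondrial genes gave a median of 1.05% of UMIs (1.02 to 1.07) after anti-CD137 and 1.28% (1.26 to 1.29) in the Ig control, and ribosomal protein genes gave 19.2% (18.99 to 19.4) and 18.1% (18.004 to 18.2). These last 2 pairs differed beyond counting error, by small amounts.

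The difference in the cluster 3 share was present at every depth. Among Tex cells with 2000 to 3000 UMIs, 4.88% (4.15 to 5.69) of anti-CD137 cells and 55.8% (52.4 to 59.2) of Ig control cells lay in cluster 3. Above 10000 UMIs the shares were 82.8% (78.7 to 86.5) and 99.7% (99.3 to 99.9). The share was thus higher among deeper cells in both treatments, and averaged over bins of UMIs per cell, weighted by cells, it was 28.8% after anti-CD137 and 80.8% in the Ig control.

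**Figure D1:**
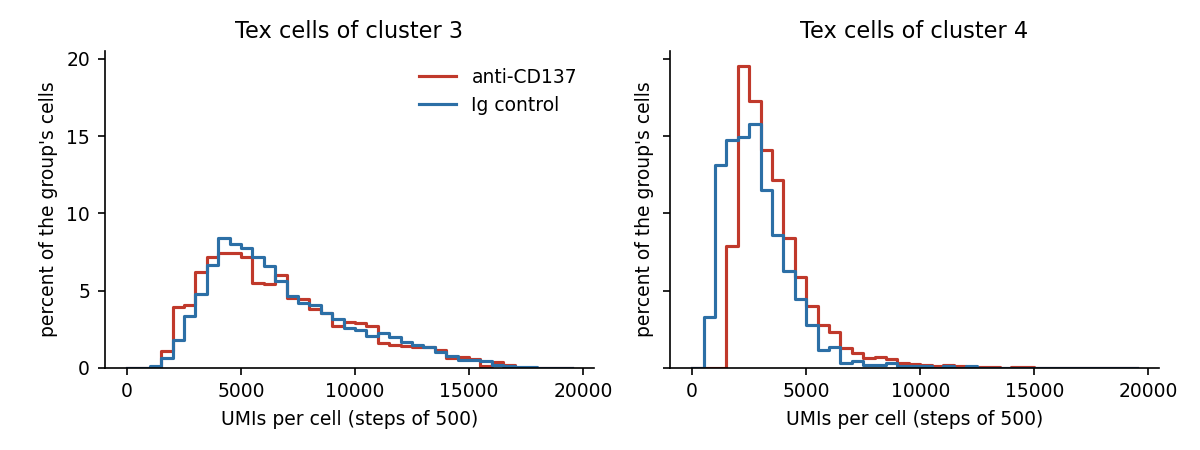
Percent of cells (y axis) by UMIs per cell in steps of 500 (x axis) for Tex cells of cluster 3 (left) and cluster 4 (right), with anti-CD137 in red and Ig control in blue. The cluster 3 curves lie close together, with medians of 6001 and 6092 UMIs, and the cluster 4 curves peak at fewer UMIs.

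The deposited cell cycle calls placed more anti-CD137 cells of cluster 3 in S or G2M phase, the phases of DNA synthesis and of preparation for and passage through division. S or G2M was assigned to 67.5% (65.3 to 69.6) of 1898 anti-CD137 cells, against 40.8% (39.8 to 41.8) of 9229 Ig control cells. The difference was 26.7 percentage points (24.3 to 29.0). Both phases took part: S phase took up 36.5% (34.3 to 38.7) of anti-CD137 and 23.3% (22.4 to 24.2) of Ig control cells, and G2M phase 31.0% (28.9 to 33.1) and 17.5% (16.8 to 18.3). The median S score was 0.0392 after anti-CD137 and -0.155 in the Ig control, and the median G2M score was -0.0174 and -0.236. Such calls come from lists of cell cycle genes and are not a measure of division.

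Depth moved with the calls, and the difference between treatments was also seen within bins of UMIs per cell. In anti-CD137 cells the median was 4813 UMIs in G1, 6804 in S and 6846 in G2M phase, and in Ig control cells 5063, 8562 and 8897. Anti-CD137 cells were thus the shallower ones within each phase. At 3000 to 4000 UMIs, S or G2M was assigned to 50.4% (44.1 to 56.7) of anti-CD137 and 11.7% (9.86 to 13.8) of Ig control cells of cluster 3. Above 10000 UMIs the shares were 92.0% (88.5 to 94.8) and 85.2% (83.4 to 86.9). The anti-CD137 share was the higher one in each of the bins, and the gap narrowed among the deepest cells. Averaged over bins it was 67.7% after anti-CD137 and 40.7% in the Ig control. With no values per gene, cells were not thinned to a common depth. The part of free RNA in the calls was not tested.

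Pooled over cells of all depths, the calls also set cluster 3 apart from cluster 4 in both treatments. In cluster 4, S or G2M was assigned to 19.9% (18.996 to 20.8) of anti-CD137 and 11.9% (9.87 to 14.1) of Ig control cells. The gap between clusters 3 and 4 was 47.6 points (45.3 to 49.9) after anti-CD137 and 29.0 points (26.5 to 31.2) in the Ig control. These gaps were not matched for depth, and cluster 4 cells were shallower. At 3000 to 4000 UMIs, 50.4% of cluster 3 and 16.1% (14.6 to 17.8) of cluster 4 cells were called S or G2M after anti-CD137. In the Ig control the shares were 11.7% (9.86 to 13.8) and 9.47% (5.71 to 14.6), with overlapping intervals. At 2000 to 3000 UMIs the Ig control shares were 18.1% (14.8 to 21.9) and 7.93% (5.09 to 11.7). In both bins the Ig control gap was smaller than over all cells. Read the other way, cluster 3 took 8.89% (8.23 to 9.58) of anti-CD137 G1 cells of clusters 3 and 4, 41.9% (39.5 to 44.3) of S phase cells and 49.2% (46.3 to 52.1) of G2M cells. It took 86.8% (85.9 to 87.6) of G1, 97.1% (96.3 to 97.8) of S and 97.1% (96.2 to 97.9) of G2M cells in the Ig control. Cells called S or G2M were therefore the ones most often in cluster 3 after anti-CD137. The sources used here do not say whether cell cycle genes entered the clustering, so this is a description of the cluster.

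**Figure D2:**
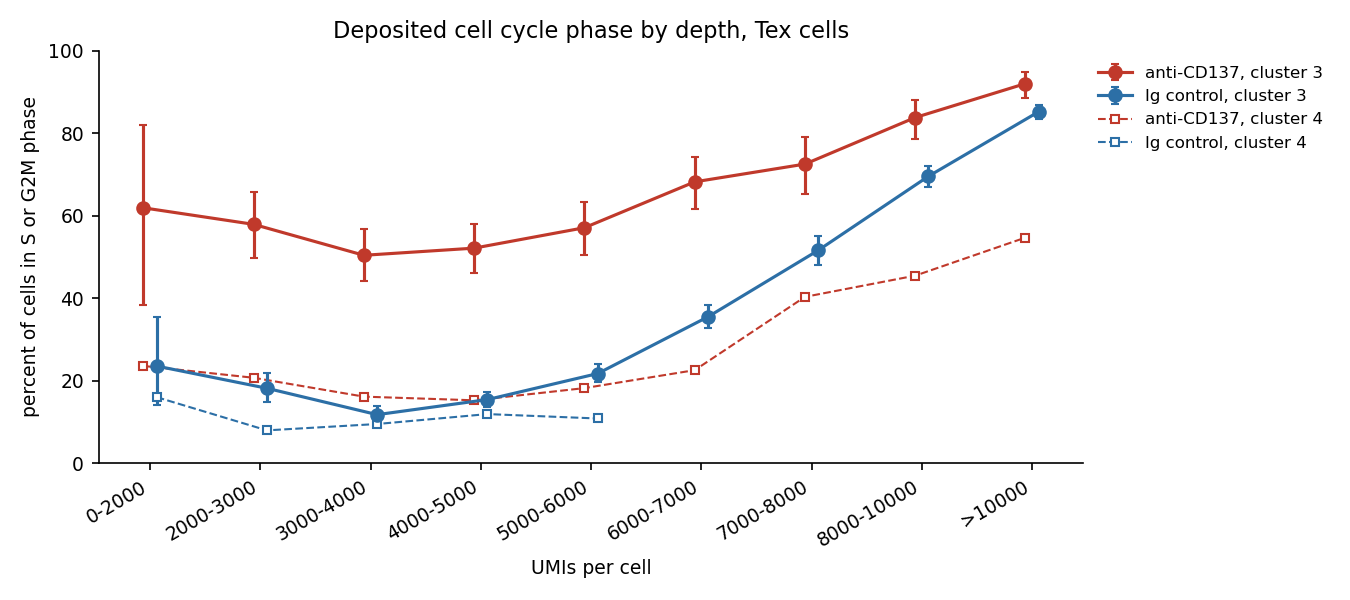
Percent of Tex cells assigned to S or G2M phase (y axis) by UMIs per cell (x axis), for cluster 3 (filled circles, solid lines, 95% intervals for counting error) and cluster 4 (open squares, dashed lines, bins with at least 20 cells), with anti-CD137 in red and Ig control in blue. In cluster 3 the anti-CD137 points lie above the Ig control points in every bin, at 50.4% and 11.7% for 3000 to 4000 UMIs and at 92.0% and 85.2% above 10000 UMIs.

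A paired TRA and TRB was assembled in fewer anti-CD137 cells. Both chains were found in 56.4% (54.2 to 58.7) of anti-CD137 and 75.8% (74.96 to 76.7) of Ig control cells of cluster 3, and at least 1 chain in 66.7% (64.5 to 68.8) and 83.5% (82.7 to 84.2). Cells with a TRB had a median of 15 TRB UMIs after anti-CD137 and 19 in the Ig control. Both the share and the number of receptor UMIs were lower after anti-CD137. The medians of all UMIs per cell differed by less than counting error over all phases, but within each phase the anti-CD137 median was lower. Averaged over bins of UMIs per cell, the paired share was 57.3% after anti-CD137 and 75.8% in the Ig control. In the anti-CD137 library the paired cells were the deeper ones, with medians of 6359 UMIs with a pair and 5549 without, and in the Ig control the shallower ones, with 5986 and 6594. S or G2M was assigned to 69.5% (66.6 to 72.2) of paired anti-CD137 and 39.6% (38.4 to 40.7) of paired Ig control cells.

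Pairing was checked through chains that recurred. Each paired cell whose TRB recurred in cluster 3 of a library was compared with the other paired cells of that TRB. On average over cells, 92.3% of those others had the same TRA after anti-CD137 and 95.7% in the Ig control. More than 1 TRB was found in 6.16% (4.80 to 7.77) of paired anti-CD137 and 3.21% (2.81 to 3.65) of paired Ig control cells, as is seen when 2 cells share a droplet and in the few T cells that rearrange both alleles in frame. S or G2M was assigned to 69.7% and 40.4% of these cells, close to the 69.5% and 39.6% of cells with 1 TRB.

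Clonotypes of cluster 3 were smaller and more numerous per cell after anti-CD137. The 1071 paired anti-CD137 cells made up 517 clonotypes, and the 7000 paired Ig control cells made up 1047. After 1071 cells had been drawn from each, there were 48.3 clonotypes per 100 cells after anti-CD137 and 31.5 in the Ig control. Expanded clonotypes, those of at least 2 cells, held 64.5% (61.6 to 67.4) of anti-CD137 and 79.5% (77.0 to 81.9) of Ig control cells at that number, a difference of -15.0 points (-18.8 to -11.2). The 10 largest clonotypes held 17.9% (15.7 to 20.4) and 42.8% (39.8 to 45.8), a difference of -24.9 points (-28.6 to -21.0).

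Counted over all cells, 1071 after anti-CD137 and 7000 in the Ig control, size classes depend on the number sampled and are given as a description. Clonotypes of at least 20 cluster 3 cells numbered 4 after anti-CD137 and held 8.50% (6.90 to 10.3) of paired cells, while in the Ig control 55 of them held 64.1% (63.0 to 65.3). Clonotypes seen in 1 cell held 35.5% (32.6 to 38.4) and 8.49% (7.84 to 9.16). The largest clonotype had 27 cells, or 2.52% (1.67 to 3.65), after anti-CD137 and 673 cells, or 9.61% (8.93 to 10.3), in the Ig control.

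**Figure D3:**
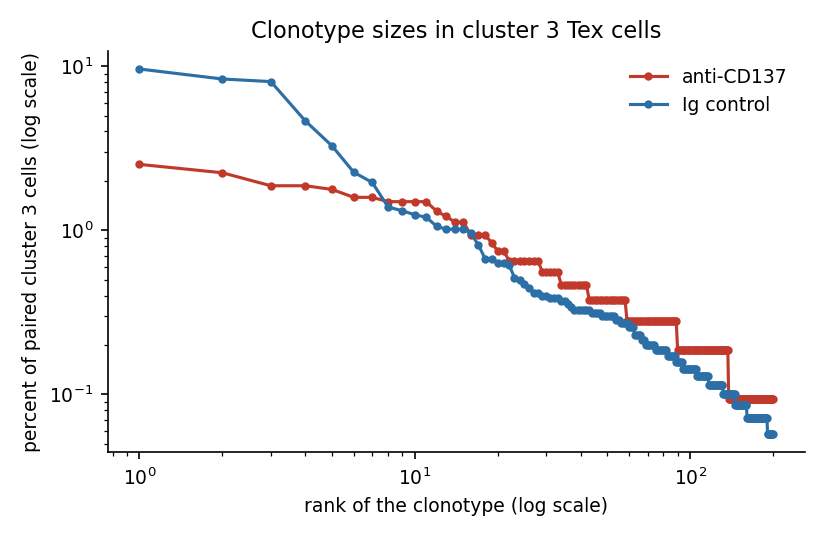
Percent of paired cluster 3 Tex cells in a clonotype (y axis, log scale) by its rank in size (x axis, log scale), with anti-CD137 in red and Ig control in blue. The largest clonotypes hold 2.52% of cells after anti-CD137 and 9.61% in the Ig control, and the curves cross after rank 7.

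The receptors of the 5 largest anti-CD137 clonotypes are shown because they are the cells behind the top of that ranking. Each line gives the CDR3 from the codon of its first cysteine to that of its last phenylalanine, 5′ to 3′, as assembled by the authors. Capitals mark bases between the stretch that matches the germline V segment and the stretch that matches the germline J segment in the GENCODE M21 annotation of GRCm38, that is, D segment bases and bases added at the joints. TRB is encoded on chromosome 6 and TRA on chromosome 14.
TRBV31 and TRBJ2-2, TRB: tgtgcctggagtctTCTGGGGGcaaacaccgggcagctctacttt
TRAV3-3 and TRAJ31, TRA: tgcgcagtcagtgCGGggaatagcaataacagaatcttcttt
TRBV12-1 and TRBJ1-2, TRB: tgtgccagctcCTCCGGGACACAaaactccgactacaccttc
TRAV12-1 and TRAJ42, TRA: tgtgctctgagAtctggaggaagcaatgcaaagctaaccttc
TRBV1 and TRBJ1-3, TRB: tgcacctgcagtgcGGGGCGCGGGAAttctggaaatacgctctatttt
TRAV13-2 and TRAJ6, TRA: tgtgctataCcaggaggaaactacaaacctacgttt
TRBV5 and TRBJ1-4, TRB: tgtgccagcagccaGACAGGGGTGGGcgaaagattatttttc
TRAV12D-3 and TRAJ12, TRA: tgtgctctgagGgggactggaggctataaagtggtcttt
TRBV19 and TRBJ1-1, TRB: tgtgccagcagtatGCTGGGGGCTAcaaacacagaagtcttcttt
TRAV16N and TRAJ37, TRA: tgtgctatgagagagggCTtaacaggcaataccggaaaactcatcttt

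These clonotypes used a different TRBV segment each. The TRBV31 clonotype was the largest, with 27 cells in cluster 3 and 76 in cluster 4. The TRBV12-1 clonotype had 24 and 16 cells, the TRBV1 clonotype 20 and 193, the TRBV5 clonotype 20 and 40, and the TRBV19 clonotype 19 and 48. So 4 of them were larger in cluster 4, and the TRBV12-1 clonotype was larger in cluster 3. In Tpex they had 0, 4, 1, 3 and 5 cells, in the same order.

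The 5 largest Ig control clonotypes are shown for comparison of their joints and segments.
TRBV2 and TRBJ2-1, TRB: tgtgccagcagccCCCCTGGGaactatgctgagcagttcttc
TRAV6-7-DV9 and TRAJ43, TRA: tgtgctctgagGaacaatgccccacgattt
TRBV5 and TRBJ2-3, TRB: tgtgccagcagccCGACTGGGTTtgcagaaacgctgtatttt
TRAV12-3 and TRAJ26, TRA: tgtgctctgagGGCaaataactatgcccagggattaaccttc
TRBV5 and TRBJ2-1, TRB: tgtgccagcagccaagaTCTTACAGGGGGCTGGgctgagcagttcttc
TRAV16N and TRAJ37, TRA: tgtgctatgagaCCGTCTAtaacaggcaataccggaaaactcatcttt
TRBV5 and TRBJ1-3, TRB: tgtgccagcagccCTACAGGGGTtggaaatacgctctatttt
TRAV12D-3 and TRAJ11, TRA: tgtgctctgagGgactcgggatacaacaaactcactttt
TRBV12-2 and TRBJ1-4, TRB: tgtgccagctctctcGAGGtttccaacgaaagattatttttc
TRAV9N-3 and TRAJ16, TRA: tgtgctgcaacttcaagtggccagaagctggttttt

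TRBV5 was used by 3 of these. The TRBV2 clonotype had 673 cells in cluster 3 and 73 in cluster 4. Among the TRBV5 clonotypes, the one with TRBJ2-3 had 585 and 101 cells, the one with TRBJ2-1 564 and 22, and the one with TRBJ1-3 325 and 49. The TRBV12-2 clonotype had 229 and 7 cells. All 5 were larger in cluster 3. Their Tpex counts were far apart: 869 for TRBV2, 797 for TRBV5 with TRBJ2-3, 25 for TRBV5 with TRBJ2-1, 183 for TRBV5 with TRBJ1-3 and 4 for TRBV12-2.

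Clonotypes found in cluster 3 of both treatments numbered 2. The TRBV12-2 clonotype printed above for the Ig control had 1 anti-CD137 cell and 229 Ig control cells. The other is shown because it was seen in several anti-CD137 cells; it had 5 anti-CD137 cells and 1 Ig control cell in cluster 3.
TRBV20 and TRBJ2-7, TRB: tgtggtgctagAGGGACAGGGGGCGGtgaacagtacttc
TRAV13N-2 and TRAJ11, TRA: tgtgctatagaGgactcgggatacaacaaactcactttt

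Beta chain joints were of like length in both treatments, and alpha chain joints held slightly fewer added bases after anti-CD137. Counted once per clonotype, the TRB CDR3 was 14.0 ± 1.45 amino acids long after anti-CD137 and 13.9 ± 1.501 in the Ig control (SD over 517 and 1047 clonotypes). TRB had 10.2 ± 3.78 bases outside the germline matches after anti-CD137 and 9.97 ± 3.89 in the Ig control (SD over the 447 and 899 clonotypes whose V and J could be matched). TRA, which has no D segment, had 2.65 ± 1.94 such bases after anti-CD137 and 2.97 ± 2.09 in the Ig control (SD over 515 and 1046 clonotypes), with medians of 2 and 3. In cluster 4 the TRA means were 2.67 and 2.95. The same TRB amino acid CDR3 arose from at least 2 nucleotide CDR3s in 3 of 489 cases after anti-CD137 and 13 of 967 in the Ig control. For the amino acid pair of both chains it was 4 of 513 and 2 of 1045.

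Large clonotypes lay mostly in cluster 4 after anti-CD137 and mostly in cluster 3 in the Ig control. Clonotypes with at least 20 Tex cells in the 2 clusters numbered 31 after anti-CD137 and 59 in the Ig control. The share of a clonotype's Tex cells in cluster 3 ran from 2% to 60% (median 21.0%) after anti-CD137 and from 46.7% to 100% (median 95.9%) in the Ig control. The ranges overlapped between 46.7% and 60%. Over all paired cells of the 2 clusters the share was 22.9% (21.7 to 24.1) and 92.0% (91.4 to 92.6). Cells whose clonotype was seen once in the 2 clusters gave 30.6% (27.4 to 33.8) and 93.4% (91.1 to 95.3), so the difference between treatments was present without large clones.

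Some clonotypes stood apart from their library. After anti-CD137, the interval of 2 of 31 clonotypes (6.45%) lay above the library's 22.9% and that of 10 (32.3%) below it. Of 59 Ig control clonotypes, 7 (11.9%) lay above the library's 92.0% and 9 (15.3%) below it. The 2 highest anti-CD137 shares were those of the TRBV12-1 clonotype printed above, with 24 of 40 cells or 60% (43.3 to 75.1), and of a TRBV26, TRBJ2-1, TRAV3N-3 and TRAJ12 clonotype, with 16 of 27 cells or 59.3% (38.8 to 77.6). The lowest was that of a TRBV16, TRBJ2-1, TRAV7D-2 and TRAJ18 clonotype, with 1 of 50 cells or 2% (0.0506 to 10.6). In the Ig control the lowest was that of a TRBV3, TRBJ2-4, TRAV8N-2 and TRAJ4 clonotype, with 14 of 30 cells or 46.7% (28.3 to 65.7). Its interval overlapped those of the 2 highest anti-CD137 clonotypes.

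**Figure D4:**
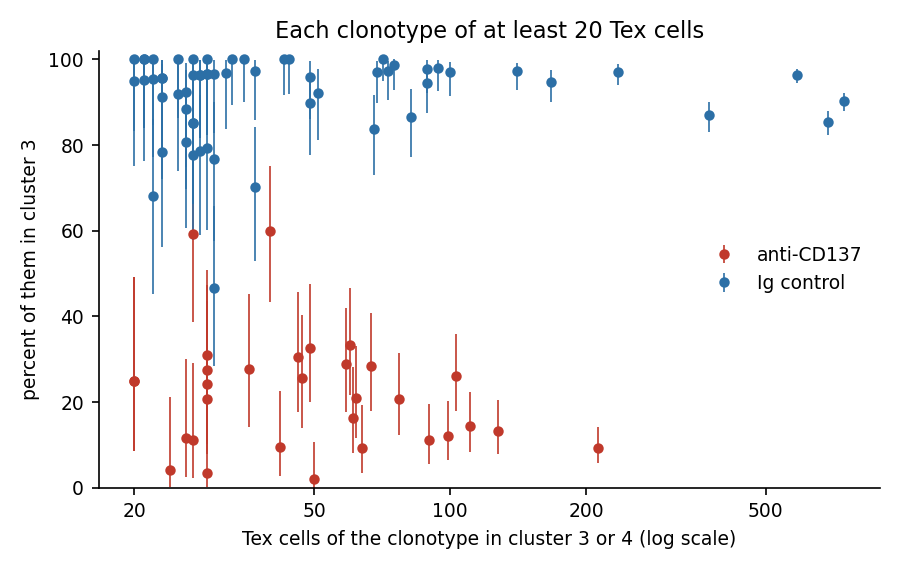
Each point is a clonotype with at least 20 Tex cells in clusters 3 and 4, with its number of such cells (x axis, log scale) and the percent of them in cluster 3 (y axis) with the 95% interval for counting error, anti-CD137 in red and Ig control in blue. The 31 anti-CD137 clonotypes lie between 2% and 60% and the 59 Ig control clonotypes between 46.7% and 100%.

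Cell cycle calls differed among clonotypes of cluster 3. The 4 anti-CD137 clonotypes with at least 20 cluster 3 cells had S or G2M shares of 91.7% for TRBV12-1, 85.2% for TRBV31, 85% for TRBV1 and 60% for TRBV5, with 12 to 23 such cells each. In the Ig control the 55 such clonotypes ran from 0% to 88.9%, with a median of 36.4%. The interval lay above the 39.6% of all paired cells in 7 of the 55 (12.7%) and below it in 7 (12.7%). The share expected from a clonotype's own UMIs per cell ran from 17.0% to 74.5%, so depth moved with these values. The interval also excluded the share expected from depth in 2 of those above and 4 of those below.

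Among the 5 largest Ig control clonotypes, the values fell on both sides. TRBV5 with TRBJ2-3 had 296 of 585 cells in S or G2M, 50.6% (46.5 to 54.7), where its depth gave 41.4%. TRBV5 with TRBJ1-3 had 138 of 325, 42.5% (37.0 to 48.0), where its depth gave 29.4%. TRBV2 had 312 of 673, 46.4% (42.5 to 50.2), where its depth gave 43.0%. Lower values came from TRBV5 with TRBJ2-1, with 132 of 564 cells or 23.4% (19.97 to 27.1) where its depth gave 34.3%, and from TRBV12-2, with 66 of 229 or 28.8% (23.0 to 35.2) where its depth gave 36.9%. The extremes were smaller: a TRBV5, TRBJ2-3, TRAV9N-2 and TRAJ24 clonotype had 32 of 36 cells in S or G2M, and a clonotype with the combined name TRBV12-2+TRBV13-2, TRBJ2-7, TRAV7-6 and TRAJ47 had 0 of 26, which allows up to 13.2%. Their depth gave 62.3% and 17.0%.

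The S or G2M share went with clone size in the anti-CD137 cells. It was 63.9% (58.9 to 68.8) in clonotypes of 1 cell, 70.4% (64.3 to 75.9) at 2 to 4 cells, 71.8% (66.7 to 76.4) at 5 to 19 and 81.3% (71.8 to 88.7) at 20 or more. Median UMIs in these classes were 5663, 6392, 6557 and 7302, so depth moved the same way, and its part was not tested. In the Ig control the classes gave 42.4% (38.4 to 46.5), 43.4% (39.7 to 47.2), 38.2% (35.5 to 41.0) and 39.0% (37.5 to 40.4), with no such order. Anti-CD137 values were the higher ones in each class.

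Clonotypes of cluster 3 were found less often in Tpex of the same treatment after anti-CD137. The share of paired cluster 3 cells whose clonotype had at least 1 Tpex cell was 41.4% (38.4 to 44.4) after anti-CD137 and 78.7% (77.7 to 79.6) in the Ig control, a difference of -37.3 points (-40.4 to -34.2). Fewer anti-CD137 Tpex cells could be searched, 4471 paired cells of 13209 against 10041 of 12871. With the Ig control Tpex thinned to 4471 paired cells, its share was 70.8%, against 41.4% after anti-CD137. Matching on TRB alone, which needs no pair, gave 63.7% (61.0 to 66.4) and 81.4% (80.5 to 82.3). That match also counts more cluster 3 cells (1259 and 7603) and searches more Tpex cells (5980 and 11258), and these changes were not separated.

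The difference was smaller outside the largest clones. Without the 10 largest clonotypes of each Tex library the shares were 37.8% (34.7 to 41.0) after anti-CD137 and 63.2% (61.7 to 64.7) in the Ig control. Counted once per clonotype they were 24.6% (20.9 to 28.5) of 517 and 44.1% (41.1 to 47.2) of 1047. By TRB alone, once per clonotype, they were 42.4% (38.2 to 46.7) and 49.8% (46.7 to 52.9), a difference of -7.42 points (-12.6 to -2.13). Tpex was not thinned for these values. In both treatments the share of cells found in Tpex was higher for larger clonotypes. It was 16.8% in clonotypes of 1 cell and 70.3% at 20 or more after anti-CD137, and 32.3% and 92.3% in the Ig control. As a background, 0.0934% of anti-CD137 cells had a clonotype seen in Ig control Tpex, and 0 of 7000 Ig control cells had one seen in anti-CD137 Tpex, with an exact upper limit of 0.0527%. Against Tex of the other treatment the shares were 0.560% and 3.29%, the last from 2 clonotypes. The background by TRB alone, against Tpex of the other treatment, was 0.238% of anti-CD137 and 3.95% (3.52 to 4.41) of Ig control cells, so this looser match carried a higher background in the Ig control.

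Cells found in Tpex and cells not found there had like cell cycle calls. S or G2M was assigned to 70.2% (65.7 to 74.4) of found and 68.9% (65.2 to 72.6) of other anti-CD137 cells, a difference of 1.25 points (-4.51 to 6.92). Ig control values were 39.7% (38.4 to 41.0) and 39.3% (36.8 to 41.8), a difference of 0.393 points (-2.45 to 3.20). Placement between clusters was also close: of Tex cells whose clonotype was found in Tpex, 21.4% lay in cluster 3, against 24.1% of the others, after anti-CD137 (difference -2.63 points, -5.06 to -0.179). That sign was not shared by all clone sizes: within clonotypes of 1, 2 to 4, 5 to 19 and 20 or more Tex cells the difference was 0.961, 5.39, 2.51 and -2.69 points, each with an interval that included 0, and by TRB alone over all sizes it was -1.92 points (-4.53 to 0.635). The Ig control gave 91.7% and 93.1% (difference -1.46 points, -2.85 to 0.0590). By the same clone sizes its differences were -0.0446, -1.31, -4.20 and 0.953 points. Of these, only the interval at 5 to 19 cells (-7.05 to -1.07) excluded 0.

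Seen from Tpex, cluster 3 clonotypes were a small part of the anti-CD137 library. They accounted for 7.49% (6.74 to 8.30) of 4471 paired anti-CD137 Tpex cells and 37.1% (36.2 to 38.1) of 10041 Ig control ones, or 28.3% when 1071 Ig control cluster 3 cells were drawn. These Tpex cells lay mostly in cluster 1, 88.7% (84.8 to 91.8) of them after anti-CD137 and 90.5% (89.5 to 91.4) in the Ig control. Clusters 3 and 4 held 3.28% (1.65 to 5.80) and 5.69% (4.97 to 6.48) of them. Other paired Tpex cells lay in those clusters less often, at 1.02% (0.733 to 1.37) and 2.64% (2.26 to 3.07). S or G2M was assigned to 23.0% (18.6 to 27.9) of the Tpex cells with a cluster 3 clonotype and 34.5% (33.0 to 35.9) of the others after anti-CD137, against 23.2% (21.8 to 24.6) and 19.2% (18.2 to 20.2) in the Ig control. The 2 treatments thus differed in which of these Tpex groups had the higher share, and depth was not matched here.

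Sharing with Teff was low by cells, and in the Ig control it came mostly from 1 clonotype. A clonotype found in Teff marked 10.5% (8.69 to 12.4) of anti-CD137 and 11.6% (10.8 to 12.4) of Ig control cells of cluster 3, a difference of -1.13 points (-3.06 to 0.995). Of the 811 Ig control cells so marked, 673 were the TRBV2 clonotype, which had 2 Teff cells. The likeness by cells therefore rests on that clonotype. The paired Teff cells searched numbered 20234 and 17420. Matching on TRB alone gave 15.4% (13.5 to 17.5) and 12.8% (12.1 to 13.6). Counted once per clonotype, the shares by both chains were 7.16% (5.09 to 9.73) and 2.39% (1.55 to 3.50). Both had the anti-CD137 value higher.

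Sharing with cluster 4 of the same library depended on how many cluster 4 cells were searched. It was 72.6% (69.9 to 75.3) after anti-CD137, with 3608 paired cluster 4 cells, and 67.6% (66.5 to 68.7) in the Ig control, with 610, a difference of 5.06 points (2.07 to 7.93). With 610 anti-CD137 cluster 4 cells drawn, the anti-CD137 share was 52.5%, below the 67.6% of the Ig control. All of the 10 largest cluster 3 clonotypes were found in cluster 4 in both treatments, and 4 of them after anti-CD137 and 5 in the Ig control were among its 10 largest. Of those 10, 7 anti-CD137 and 10 Ig control clonotypes were found in Tpex, and 1 and 1 in Teff.

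V and J segment use differed widely by cells and much less by clonotypes. Of 108 segments that reached 1% of paired cluster 3 cells in either treatment, 32 (29.6%) were at least 2-fold higher after anti-CD137 and 23 (21.3%) at least 2-fold lower. With each clonotype counted once, 8 (7.02%) of 114 were higher and 8 (7.02%) lower, and 7 of the 55 were past 2-fold in the same direction by both counts. Without the 10 largest clonotypes of each library, 115 segments were counted and the split turned to 18 higher and 27 lower. Cells of 1 clonotype share their segments, so intervals over cells are too narrow for segments carried by large clones.

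Among TRBV segments, TRBV5 (chr6:41062332-41062803, plus strand) had 9.80% (8.09 to 11.7) of anti-CD137 and 27.3% (26.3 to 28.4) of Ig control cells, but 6.96% (4.92 to 9.51) and 7.26% (5.76 to 9.002) of clonotypes. TRBV2 (chr6:41047340-41047995, plus strand) had 1.77% (1.07 to 2.76) and 12.8% (12.0 to 13.6) of cells, and 673 of its 895 Ig control cells were 1 clonotype. In the other direction, TRBV12-1 (chr6:41113550-41114067, plus strand) had 8.40% (6.81 to 10.2) and 2.90% (2.52 to 3.32) of cells. TRBV31 (chr6:41557691-41558452, minus strand), which lies beyond the J segments and joins by inversion, had 7.38% (5.88 to 9.11) and 2.76% (2.39 to 3.17). By clonotypes these last 2 stood at 7.16% and 6.21%, and at 3.29% and 2.20%, with overlapping intervals. TRBV14 (chr6:41135145-41135616, plus strand) was the TRBV segment past 2-fold by both counts, with 6.44% (5.05 to 8.08) and 2.99% (2.60 to 3.41) of cells and 5.42% (3.63 to 7.73) and 2.48% (1.63 to 3.62) of clonotypes.

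**Figure D5:**
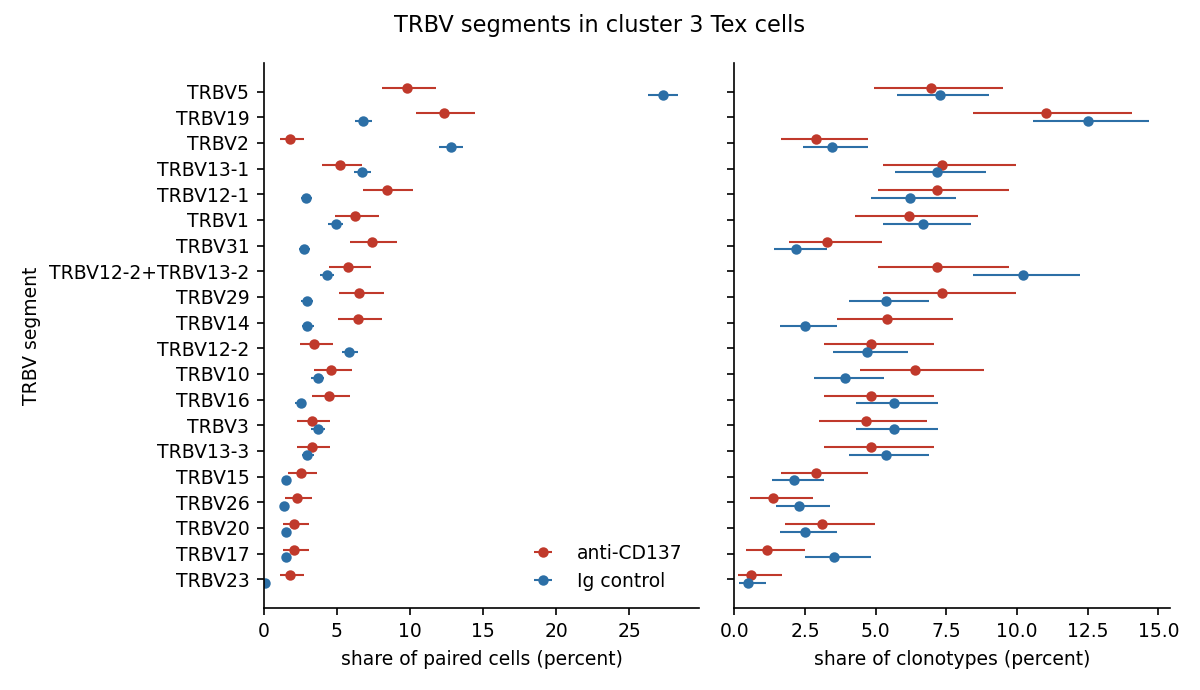
Share of paired cluster 3 Tex cells (left) and of clonotypes (right) that use each TRBV segment, in percent with 95% intervals for counting error, anti-CD137 in red above Ig control in blue. TRBV5 and TRBV2 stand apart by cells, at 9.80% and 27.3% and at 1.77% and 12.8%, and draw together by clonotypes.

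Beta J segments also differed more by cells than by clonotypes. TRBJ2-1 (chr6:41542754-41542803) had 14.1% (12.1 to 16.3) of anti-CD137 and 28.4% (27.3 to 29.4) of Ig control cells, and 15.7% (12.6 to 19.1) and 14.6% (12.5 to 16.9) of clonotypes. TRBJ2-4 (chr6:41543362-41543410) had 11.7% (9.81 to 13.7) and 2.97% (2.59 to 3.40) of cells, and 7.93% and 7.74% of clonotypes, and its largest clonotypes had 17 and 19 cells. The TRBJ2 group as a whole took up 67.7% (64.8 to 70.5) and 65.7% (64.5 to 66.8) of cells. Of the 12 TRBJ segments, 1 was at least 2-fold higher and 3 lower, counts too small to set against the 29.6% and 21.3% of all segments.

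Several alpha chain segments were far apart by cells. The widest ratios were those of TRAV13-4-DV7, with 29 anti-CD137 and 5 Ig control cells (ratio 37.9), TRAJ5, with 17 and 4 cells (27.8), and the beta segment TRBV23, with 19 and 7 cells (17.7). A single anti-CD137 clonotype gave 16 of the TRAV13-4-DV7 cells and another 17 of the TRBV23 cells. By clonotypes TRAV13-4-DV7 had 2 after anti-CD137 and 4 in the Ig control (ratio of shares 1.01). TRBV23 had 3 and 5 (1.22) and TRAJ5 had 6 and 4 (3.04). TRAV3N-3 (chr14:53283585-53284175) had 8.03% (6.47 to 9.82) of anti-CD137 and 1.76% (1.46 to 2.09) of Ig control cells. TRAV3-3 (chr14:53665929-53666506) had 6.54% (5.13 to 8.19) of anti-CD137 and 0.429% (0.289 to 0.611) of Ig control cells, and 2.71% (1.49 to 4.50) and 1.53% (0.876 to 2.47) of clonotypes. TRAJ31 (chr14:54187895-54187951) had 9.62% (7.92 to 11.5) and 0.957% (0.743 to 1.21) of cells, and 5.03% (3.31 to 7.28) and 2.58% (1.71 to 3.73) of clonotypes, a clonotype ratio of 1.95. Both are joined in the largest anti-CD137 clonotype. In the other direction, TRAV6-7-DV9 (chr14:53709902-53710419) and TRAJ43 (chr14:54174742-54174798) had 0.654% and 0.747% of anti-CD137 cells against 10.1% and 10.0% of Ig control cells, and 673 Ig control cells of each were the TRBV2 clonotype. TRAV12-3 (chr14:53621657-53622245) had 0.654% and 9.37%, with 585 Ig control cells from 1 clonotype. TRAJ26 (chr14:54194490-54194549) had 5.42% (4.14 to 6.94) and 13.6% (12.8 to 14.4) of cells, with the same 585 cells. These alpha segments are all on the plus strand.

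By both counts, TRAV13N-2, TRAV4-3, TRAV9N-4 and TRAJ5 were higher and TRAV14N-2 and TRAV8D-2 lower after anti-CD137. The clonotype counts behind them were small, 17 and 17 for TRAV13N-2, 7 and 7 for TRAV4-3 and for TRAV9N-4, 6 and 4 for TRAJ5, 5 and 30 for TRAV14N-2, and 3 and 15 for TRAV8D-2, of 517 and 1047. The interval of the difference by clonotypes excluded 0 for TRBV14 (0.816 to 5.40 points) and TRAV14N-2 (-3.26 to -0.323 points) and included it for the other 5. Among segments past 2-fold by clonotypes but not by both counts, the interval excluded 0 for TRAV9N-3 (1.85 to 6.69 points) and TRAV7D-3 (0.107 to 2.67 points). On the lower side it did so for TRBV17 (-3.87 to -0.674 points), TRAV13N-4 (-2.41 to -0.322 points) and TRAJ40 (-4.62 to -1.05 points). By cells TRBV17 stood the other way, at 2.05% and 1.51%, with overlapping intervals. The mouse alpha locus holds near-identical copies of many V segments, named with D and N, so which copy a chain came from is uncertain.

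Between clusters 3 and 4 of the same library, a smaller part of the segments was past 2-fold than between treatments. After anti-CD137, 5 (4.95%) of 101 segments were at least 2-fold higher in cluster 3 and 8 (7.92%) lower. In the Ig control, with 610 paired cluster 4 cells, 10 (11.1%) of 90 were higher and 10 (11.1%) lower.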

How the data were processed

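The 12 libraries were gene expression and TCR libraries of 3 sorted subsets under both treatments. Per the submitters' processing notes, Cell Ranger 3.0.2, Seurat 4.0.0 and build mm10 were used. Per the file headers, the deposited cell table gives counts of UMIs and detected genes, the mitochondrial and ribosomal protein percent of UMIs, the S score, G2M score and phase, and the cluster. The deposited TCR table gives counts of UMIs and reads per assembled contig, with its V and J segments and CDR3.

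Receptors were matched to cells on library and barcode, taking the TRA and TRB with most UMIs, and clonotypes were defined by the CDR3 bases of both. Deposited cluster numbers and phases were used as given, and no doublet caller was run. Shares have exact Clopper-Pearson 95% intervals and differences have Newcombe intervals. Thinned values are expected values over draws without replacement. The thinned share of the 10 largest clonotypes is instead a mean over 200 such draws. The formula for expanded clonotypes was checked against 200 draws from the Ig control clone sizes. That for sharing was checked against draws from simulated data. UMI-bin means weight each bin with at least 20 cells of both libraries by its cells in both, and a clonotype's share expected from depth applies the shares per bin of its own library. Germline matches and segment positions, counted from 1, used GENCODE M21 (GRCm38, also called mm10), which placed 107 of 108 segments; the combined name was kept as deposited.

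Named segments were those past a 2-fold ratio with at least 1% of cells, up to 6 per direction and chain, plus those past it by clonotypes too, and of these the ones described were picked with their values in view. Named clonotypes were the 5 largest per treatment, those with the 2 highest and 2 lowest cluster 3 shares (of which the extremes are described), and those in both treatments. The clonotypes with the extreme S or G2M shares were chosen after their values were seen. The members and lists were chosen with earlier results of these data known. Scripts used Python 3.11.15, numpy 2.4.6, pandas 2.3.3, scipy 1.17.1 and matplotlib 3.10.9.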

Additional observations from a re-analysis of the deposited data

Results flagged for a closer look

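Cells with and without a paired receptor differed in opposite directions in the 2 treatments. Among cluster 3 cells, S or G2M was assigned more often to paired than to unpaired cells after anti-CD137, by 4.53 percentage points (0.205 to 8.88), and less often in the Ig control, by -5.14 points (-7.53 to -2.76). The difference in median UMIs between paired and unpaired cells was 810 after anti-CD137 and -608 in the Ig control, so depth had the same directions. Neither contrast between treatments was tested, since each has 1 library.

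Tpex cells that carried a cluster 3 clonotype also differed from other paired Tpex cells in opposite directions. The difference in the S or G2M share was -11.5 points (-16.1 to -6.37) after anti-CD137 and 4.04 points (2.36 to 5.73) in the Ig control. The contrast between treatments was not tested.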

How the results depend on the processing

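No result of this kind has a replicate, so alternatives were compared with the counting interval of the value above. The difference in the cluster 3 share (-67.7 points) was -44.0 with each clonotype counted once per cluster and -51.9 over UMI bins. The difference in median UMIs (-91) was 373 in paired cells, so its direction is not settled. The S or G2M difference (26.7 points) was 29.9 in paired cells, 23.4 as a mean over clonotypes and 23.7 with a score of at least 0.1 in place of the phase, and it stayed within its interval over UMI bins and in cells at or above the lowest UMI count of the anti-CD137 Tex library, which was chosen after seeing the data. The difference in paired cells (-19.4) was -16.8 for at least 1 chain and -16.0 for TRB alone. The expanded share (-15.0) was -27.0 without thinning. The Tpex difference (-37.3) was -17.7 by TRB alone, -29.4 with Tpex thinned, -41.6 in cells with 1 TRA and 1 TRB, -25.4 without the 10 largest clonotypes, -19.6 by clonotypes and -44.9 with at least 2 Tpex cells. By TRB alone, once per clonotype, it was -7.42. The cluster 4 sharing difference (5.06) turned to -15.1 with cluster 4 thinned, and was 24.0 without the 10 largest clonotypes and 32.6 by clonotypes. The 55 of 108 segments past 2-fold became 16 of 114 by clonotypes. Where a setting changes the cells or clonotypes counted, that is its construction, and the cause beyond it was not tested. No paired analysis was possible because each group has 1 library. The number of paired cells limits values per anti-CD137 clonotype, since 1071 cells leave 4 clonotypes with at least 20.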

Other observations

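Among the 5 largest Ig control clonotypes, the 3 with 183 to 869 Tpex cells had S or G2M shares of 42.5% to 50.6% in cluster 3, and the 2 with 4 and 25 Tpex cells had 28.8% and 23.4%. This was seen after the values were known and was not tested, and over all cluster 3 cells those found in Tpex and the others had 39.7% and 39.3%.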
